A study of Mus musculus with 20 samples.

Results

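The genes described here are 51 genes of the DNA replication machinery, listed by symbol and grouped by role. All 51 were found among the 20377 gene symbols of the count matrix, and for the 11 that have several transcripts listed the one with the largest total count was used. The groups were licensing (12 genes), helicase activation and fork protection (8), polymerases and primase (9), clamp, clamp loader and single-strand binding (9), Okazaki fragment maturation (3), nucleotide supply and uracil removal (6), and chromatin assembly and maintenance methylation (4). The list was not chosen from any value of the matrix, although earlier results of these data were known when it was drawn up.

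The study sequenced RNA from bone marrow of male 129S4 mice, aged 4 months, that were wild-type or lacked Fancd2 (Fancd2-/-), a gene of the Fanconi anemia DNA repair pathway. The mice had eaten a placebo diet or a diet with oxymetholone, a synthetic androgen given for bone marrow failure, at 300 mg/kg for 3 months from weaning. KSL cells (cKit+ Sca1+ Lin-), the marrow fraction that holds the stem and multipotent progenitor cells, were sorted from pools of 5 mice and gave 3 libraries for each of the 4 combinations of genotype and diet. Erythroblasts (Ter119+/CD71high/FSChigh), the dividing red cell precursors, came from wild-type mice only, 1 mouse per library, with 3 libraries for each diet, and whole bone marrow came from 5 placebo-fed mice of each genotype as 1 library each. Each oxymetholone KSL library was sorted with the same flow cytometer setting as 1 placebo library of its genotype, and these 3 pairs per genotype are called pair 1 to pair 3 after the replicate number. KSL and marrow libraries each pool mice, so the spread between KSL libraries is a spread between pools, and the 2 marrow libraries have no replicates.

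DNA replication starts at origins that are licensed before S phase, when the origin recognition complex, Cdc6 and Cdt1 load the Mcm2 to Mcm7 helicase. In S phase the helicase is activated by Mcm10 and the GINS complex, primase and the DNA polymerases copy both strands with the Pcna clamp, and ribonucleotide reductase and thymidylate synthase supply the deoxynucleotides. Many of these genes are known as targets of the E2F factors and are transcribed as a cell leaves quiescence, and most stem cells of the adult marrow are quiescent while early erythroblasts divide quickly.

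The 12 KSL libraries held 10777291 to 121347124 counted reads over the transcripts used, the 6 erythroblast libraries 17177255 to 20816422, and the marrow libraries 100192495 (wild-type) and 106889478 (Fancd2-/-). Levels are given in CPM, the usual scaling of counts to library size, with the TMM factors of edgeR within each population, so CPM of different populations are not on 1 scale unless this is said. The summed KSL markers stood at 3060 to 4420 CPM in KSL libraries and at 0.585 to 1.68 CPM in erythroblasts, and the summed erythroid markers at 55.5 to 421 CPM in KSL libraries and 73400 to 85000 CPM in erythroblasts. Fancd2 itself was read at 16.6, 18.3 and 22.4 CPM in the wild-type placebo KSL libraries and 18.2, 20.1 and 23.4 CPM in the wild-type oxymetholone libraries. It was read at 8.25, 8.05 and 7.02 CPM in the Fancd2-/- placebo libraries and 8.79, 6.63 and 6.65 CPM in the Fancd2-/- oxymetholone libraries. Every Fancd2-/- library lay below every wild-type library, and which exons the allele lacks is not given in the sources used here.

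Library 3 of the Fancd2-/- placebo group stood apart from the other 11 KSL libraries. Its median over the 51 genes, as the log2 difference from the wild-type placebo mean, was 0.57, against 0.18 and 0.27 in libraries 1 and 2 of its group. Its summed stromal markers reached 115 CPM, against 25.6 to 37.4 CPM in the other KSL libraries, its KSL markers 3060 CPM, the lowest of the 12 against 3620 to 4420 CPM, and its log2 CPM fell with transcript length more steeply than in any other (slope -0.19, against -0.05 to 0.10). Library 2 of the same group stood apart in another way, with summed erythroid markers of 421 CPM against 55.5 to 129 CPM in the other 11, among them Hba-a1 at 113 CPM, and with Ngp, a gene of maturing neutrophils, at 58 CPM against 2.61 to 14.4 CPM. The part of these features in the results was not tested, and the comparisons that use these libraries are given below with values without library 3 and, for Rrm2 and the gene lists, without library 2.

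In wild-type placebo KSL cells the clamp loader subunit Rfc2 and several subunits of the Mcm helicase were among the most abundant replication transcripts. Per kilobase of the longest annotated transcript of each gene, Rfc2 stood highest at 247 ± 29.5 CPM per kb (SD, n = 3). This level was at percentile 98.4 to 98.7 of the genes that passed the filter on low counts in KSL cells and have an annotated length. The longest transcript need not be the one counted, so the order of genes per kilobase depends in part on this choice. Mcm3 stood at 182 ± 4.27 CPM per kb, Mcm6 at 157 ± 9.77, Mcm5 at 137 ± 7.50, Mcm7 at 125 ± 6.05, Mcm2 at 97.9 ± 2.05 and Mcm4 at 66.9 ± 7.44. The single-strand binding subunit Rpa2 and the nucleotide gene Dut lay among these values, and Mcm4 lay under several genes of other roles. The 6 Mcm subunits form a ring with 1 copy of each. Over the 3 libraries Mcm3 (179 to 187 CPM per kb) did not overlap Mcm6 (147 to 166), nor Mcm2 (96.4 to 100) Mcm4 (59.5 to 74.4). Mcm5 (128 to 142) and Mcm7 (120 to 132) overlapped.

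The lowest per-length levels among the 51 belonged to the origin recognition subunit Orc1 at 4.92 ± 0.31 CPM per kb. This was at percentile 32.2 to 33.1 of the same filtered genes, which leave out those low or absent in KSL cells. Pola1, the catalytic subunit of polymerase alpha, stood at 9.42 CPM per kb and Clspn (Claspin), a fork protection and checkpoint adaptor, at 9.83. The other 4 clamp loader subunits lay well under Rfc2, with Rfc3 at 85.3, Rfc4 at 46.2, Rfc1 at 44.9 and Rfc5 at 37.6 CPM per kb. The large subunit of ribonucleotide reductase, Rrm1, stood at 94.1 CPM per kb and the small subunit Rrm2, whose level is known to follow S phase, at 29.8 ± 4.43.

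The promoters of the genes were read from 250 bases before to 50 bases after the transcript start of the deposited annotation in the mouse genome build mm9 (NCBIM37). An E2F-type motif (TTTCCCGC, TTTGGCGC, TTTCGCGC or TTTGCCGC, on either strand, overlapping matches each counted) was present in 23 of 51 (45.1%), against 3.02% of all 20303 gene promoters of the same length and 4.1% of those of the 13259 genes tested in KSL cells. It was found in 10 of 12 licensing genes, 6 of 8 helicase and fork genes and 5 of 9 polymerase genes, but in 1 of 9 clamp, loader and single-strand binding genes, 1 of 3 Okazaki genes, 0 of 6 nucleotide genes and 0 of 4 chromatin genes. The CCAAT motif, bound by NF-Y, was present in 34 (66.7%, against 38.1% of all promoters and 37.6% of those of tested genes), the GC box GGGCGG in 37 (72.5%, against 49.5% and 64%), and TTTGAA or TTCGAA, the letters of the CHR element of mitotic genes, in 4 (7.84%, against 16.5% and 13.2%). All motifs were searched on both strands, and a match is a description, not a site or a cause. Only exact letters within this window were searched, so a gene without a match may still hold a site. Of the 51 windows, 40 shared sequence with a separate set of RefSeq promoters.

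The 250 bases before the transcript start are shown, 5′ to 3′ on the coding strand with E2F-type and CCAAT matches in capitals, for 4 licensing genes that hold E2F-type matches and for 3 genes of the results on Fancd2 loss that hold none. The licensing genes are Cdc6, which loads the helicase, at chr11:98768953-98769202 (forward strand), and the helicase subunits Mcm3 at chr1:20810295-20810544 (reverse strand), Mcm5 at chr8:77633177-77633426 (forward strand) and Mcm6 at chr1:130256234-130256483 (reverse strand). The others are Pcna at chr2:132078917-132079166 (reverse strand), Rrm2 at chr12:25392869-25393118 (forward strand) and Tyms, thymidylate synthase, at chr5:30400166-30400415 (reverse strand).
Cdc6: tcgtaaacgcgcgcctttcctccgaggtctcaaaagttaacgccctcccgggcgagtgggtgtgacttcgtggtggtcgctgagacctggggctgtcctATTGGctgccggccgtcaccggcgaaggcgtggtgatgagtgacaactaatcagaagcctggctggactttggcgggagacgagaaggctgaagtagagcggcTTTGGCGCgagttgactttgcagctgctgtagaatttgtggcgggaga
Mcm3: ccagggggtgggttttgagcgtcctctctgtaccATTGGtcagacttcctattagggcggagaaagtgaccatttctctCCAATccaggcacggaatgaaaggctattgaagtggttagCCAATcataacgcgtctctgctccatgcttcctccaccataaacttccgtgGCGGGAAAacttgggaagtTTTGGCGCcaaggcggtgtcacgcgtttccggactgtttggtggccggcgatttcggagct
Mcm5: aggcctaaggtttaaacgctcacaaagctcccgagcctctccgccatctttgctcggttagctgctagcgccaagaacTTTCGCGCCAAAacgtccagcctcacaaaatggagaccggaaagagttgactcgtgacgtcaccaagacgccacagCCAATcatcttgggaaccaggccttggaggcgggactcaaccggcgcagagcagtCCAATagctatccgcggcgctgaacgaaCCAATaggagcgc
Mcm6: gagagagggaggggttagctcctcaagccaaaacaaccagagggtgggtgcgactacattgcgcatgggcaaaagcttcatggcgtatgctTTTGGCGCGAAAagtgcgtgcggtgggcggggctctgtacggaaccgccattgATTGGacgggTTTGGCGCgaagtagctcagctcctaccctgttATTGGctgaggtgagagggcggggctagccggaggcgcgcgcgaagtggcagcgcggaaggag
Pcna: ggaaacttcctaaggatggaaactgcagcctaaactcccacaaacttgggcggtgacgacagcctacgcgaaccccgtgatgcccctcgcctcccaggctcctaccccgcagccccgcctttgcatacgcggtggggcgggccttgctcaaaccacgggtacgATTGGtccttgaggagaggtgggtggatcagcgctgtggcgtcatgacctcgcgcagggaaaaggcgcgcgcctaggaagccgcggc
Rrm2: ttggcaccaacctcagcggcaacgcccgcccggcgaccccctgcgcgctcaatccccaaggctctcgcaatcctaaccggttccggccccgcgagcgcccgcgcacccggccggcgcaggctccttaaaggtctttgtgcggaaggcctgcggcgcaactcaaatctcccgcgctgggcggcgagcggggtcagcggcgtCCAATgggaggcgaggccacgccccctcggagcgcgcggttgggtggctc
Tyms: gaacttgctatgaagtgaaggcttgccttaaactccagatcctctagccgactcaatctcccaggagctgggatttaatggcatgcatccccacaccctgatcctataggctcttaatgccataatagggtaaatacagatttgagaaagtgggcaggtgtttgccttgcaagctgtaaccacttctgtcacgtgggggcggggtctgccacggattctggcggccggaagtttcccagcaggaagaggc
Counted from the transcript start, Mcm6 held 3 E2F-type matches between positions -159 and -96, Mcm3 held 2 at -80 and -61, and Cdc6 held 1 at -48. Mcm5 held 3 between positions -172 and 33, the last of them past the stretch shown. Rrm2 and Pcna held 1 CCAAT match each and no E2F-type match in this window, and Tyms held neither.

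The effect of Fancd2 loss in placebo-fed mice was read from 3 Fancd2-/- against 3 wild-type placebo KSL libraries. All 51 genes had a log2 difference above 0, against 48.4% of the 13259 genes tested, and their median was 0.32 against -0.01 for all genes. All 51 passed the filter on low counts in this and every other fit. Rrm2 alone passed the test at an adjusted p under 0.05 (edgeR quasi-likelihood test, Benjamini-Hochberg over all genes tested), a call that 1.28% of all genes reached, 0.505% higher and 0.777% lower. An unadjusted p under 0.05 was reached by 27 of the 51 (19.6% of all genes), and 26 had every Fancd2-/- library above every wild-type library (11.8% of all genes), with 0 the other way (13.4%). Without Fancd2-/- placebo library 3 the median was 0.24 and 50 genes were above 0. In sorted pools, a larger share of cycling cells and more RNA per cell cannot be told apart.

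Rrm2 (NM_009104, chr12:25393119-25399011 in mm9) was read at 54.2, 71.3 and 70.8 CPM in the wild-type placebo libraries and at 96.8, 106 and 109 CPM in the Fancd2-/- placebo libraries. The groups did not overlap. Library 2 carries the erythroid markers, and the part of those markers in its Rrm2 value was not tested. The log2 difference was 0.66 ± 0.13 (SE), with group means of 104 ± 6.51 and 65.4 ± 9.72 CPM (SD, n = 3 each) and an adjusted p of 0.0257 in edgeR. Without Fancd2-/- placebo library 3 it was 0.63 with an adjusted p of 0.0576, and without both libraries of that pair 0.64 with 0.0173. The call was also lost without Fancd2-/- placebo library 2 (log2 0.67, adjusted p 0.0706) and without wild-type placebo library 1 (0.12), 2 (0.0809) or 3 (0.0621), while the log2 difference ranged from 0.56 to 0.74 over these 4 fits. In those 5 fits 0 of the 51 genes were called (0.142% to 0.568% of all genes). Called were 9 without Fancd2-/- oxymetholone library 3 (2.59% of all genes) and 5 without Fancd2-/- placebo library 1 (1.75%). DESeq2 called 17 with all libraries (6.55% of all genes with an adjusted p). The share of all genes called thus moved too, from 1.28% in the main edgeR fit.

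The genes next in rank by p did not pass. Gmnn (geminin, NM_020567, chr13:24843714-24853806), which holds Cdt1 inactive after origins have fired, was read at 91.6, 87.1 and 79.3 CPM in wild-type and 134, 124 and 164 CPM in Fancd2-/- placebo libraries (log2 0.70 ± 0.16, edgeR adjusted p 0.0555). Pcna (NM_011045, chr2:132075022-132078916), the sliding clamp, was read at 110, 119 and 112 CPM against 162, 143 and 184 CPM (0.51 ± 0.12, adjusted p 0.0574). In both genes the 3 Fancd2-/- libraries were the higher ones without overlap, and library 3 was the highest. Without library 3 the differences were 0.58 and 0.41 (edgeR adjusted p 0.132 and 0.122).

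Rrm1 (NM_009103, chr7:109590209-109618285), the large subunit of ribonucleotide reductase, was read at 365, 355 and 408 CPM in wild-type and 486, 528 and 656 CPM in Fancd2-/- placebo libraries (log2 0.56 ± 0.14, edgeR adjusted p 0.061). Tyms (NM_021288, chr5:30384740-30400165), which makes thymidylate, was read at 114, 127 and 110 CPM against 157, 156 and 258 CPM (0.69 ± 0.17, adjusted p 0.0633). Tyms in library 3 lay far above its group, while libraries 1 and 2 still lay above all wild-type libraries. Without library 3 the difference was 0.43 for Rrm1 and 0.42 for Tyms (edgeR adjusted p 0.132 and 0.104). Without both libraries of Fancd2-/- pair 3, chosen after seeing the data, 6 genes passed (3.17% of all genes). Their differences were 0.58 (Gmnn), 0.74 (Tipin), 0.42 (Pcna), 0.64 (Rrm2), 0.42 (Tyms) and 0.53 (Pola1).

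By role, the nucleotide supply genes had the largest median log2 difference, 0.56, and 4 of 6 had groups without overlap, among them Dut, the dUTPase that keeps uracil out of DNA, at 0.52 (edgeR adjusted p 0.0963). Helicase activation and fork protection followed at 0.43 with 6 of 8. Tipin, which binds Timeless at the fork, was read at 96.4, 100 and 114 CPM in wild-type and 196, 150 and 146 CPM in Fancd2-/- placebo libraries (0.66 ± 0.20, edgeR adjusted p 0.117), while its partner Timeless differed by 0.04 (adjusted p 0.903). Tipin was highest in library 1, not in library 3, the groups did not overlap, and without library 3 the difference was 0.74. Without library 3 the medians were 0.37 for nucleotide supply, with Dut at 0.32, and 0.28 for helicase and fork genes.

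Licensing genes had a median of 0.29, and 5 of 12 did not overlap. Mcm6 was read at 723, 638 and 686 CPM in wild-type and 843, 840 and 1140 CPM in Fancd2-/- placebo libraries (log2 0.45 ± 0.14, edgeR adjusted p 0.105), and Mcm3 at 558, 535 and 537 against 552, 668 and 790 CPM (0.29, adjusted p 0.25). Mcm6 separated the groups and Mcm3 did not, since Fancd2-/- library 1 fell among the wild-type values. Polymerases had a median of 0.27, with the polymerase delta subunits Pold2 at 0.27 and Pold1 at 0.15, and the clamp group 0.33, with Rfc2 at 0.25, the single-strand binding subunit Rpa2 at 0.33 and Rfc1 lowest of all at 0.005. The Okazaki ligase Lig1 stood at 0.29 and the flap nuclease Fen1 at 0.37, and the chromatin group was lowest with a median of 0.19 and 0 of 4 without overlap, with the maintenance methyltransferase Dnmt1 at 0.21 and its partner Uhrf1 at 0.18. Without library 3 the medians were 0.23 for licensing, with Mcm6 at 0.30 and Mcm3 at 0.17, 0.12 for polymerases, 0.19 for the clamp group, 0.14 for the Okazaki group and 0.13 for the chromatin group. Single genes moved further, to 0.03 for Pold2, 0.01 for Pold1, 0.10 for Rfc2, 0.13 for Rpa2, 0.14 for Lig1 and 0.20 for Fen1. Without library 2, which carries erythroid markers, the role medians were 0.66 for nucleotide supply, 0.52 for helicase and fork genes and between 0.20 and 0.44 for the others.

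**Figure D1:**
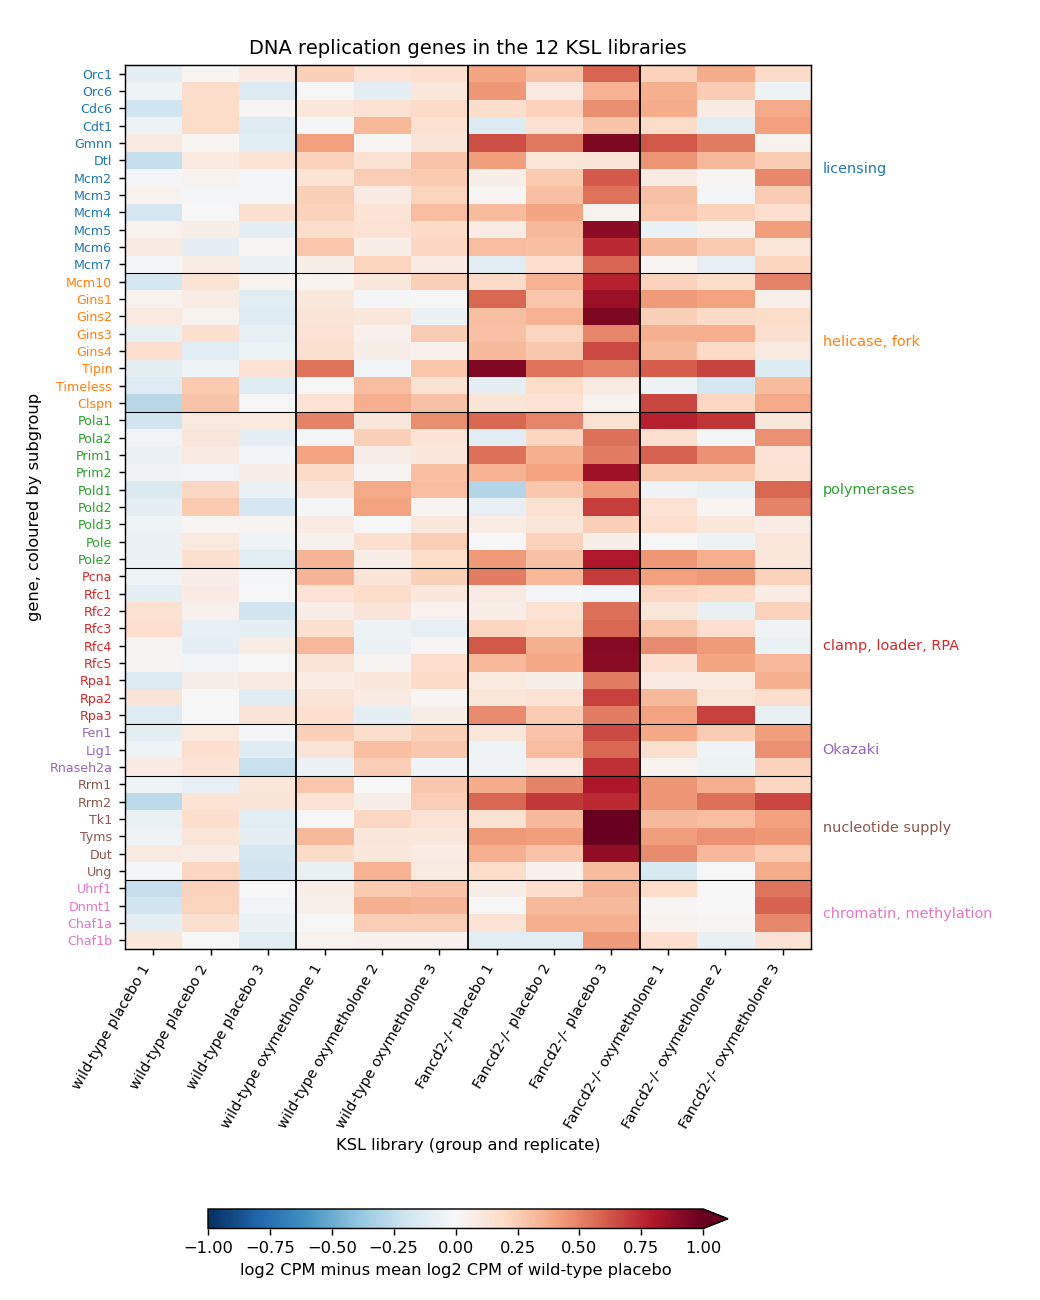
Log2 CPM of each of the 51 replication genes (vertical axis, grouped by role) in each of the 12 KSL libraries (horizontal axis), minus the gene's mean log2 CPM in the 3 wild-type placebo libraries. Red marks higher and blue lower values, and colours saturate at 1. Fancd2-/- placebo library 3 is the reddest column, with a median of 0.57.

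Genes outside the list that mark the cell cycle are given for comparison. Of 55 other replication genes 48 were above 0, and 1 passed, the histone chaperone Nasp (log2 0.64 ± 0.14, edgeR adjusted p 0.0465, 218 ± 31.5 against 140 ± 7.52 CPM). All 12 genes of S phase entry were above 0, with a median of 0.23, and 1 rose, Ccna2, cyclin A2 (0.75 ± 0.16, edgeR adjusted p 0.0387, 256 ± 15.6 against 152 ± 34.9 CPM). All 24 mitosis genes were above 0 with a median of 0.72, and 12 rose, among them Ccnb2 (0.91, edgeR adjusted p 0.00602), Cenpa (0.88, 0.00742), Ccnb1 (1.07, 0.0109) and Ube2c (1.16, 0.014). Of the replication genes 1 of 51 passed, against 12 of these 24. Without Fancd2-/- placebo library 3 the mitosis median was 0.61 with 6 passing, without library 2 it was 0.71 with 4 passing, and Nasp and Ccna2 passed in neither fit. The summed mitosis genes stood at 1890, 2460 and 2280 CPM in wild-type and 2980, 3750 and 4000 CPM in Fancd2-/- placebo libraries, and their part in the replication values was not tested.

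**Figure D2:**
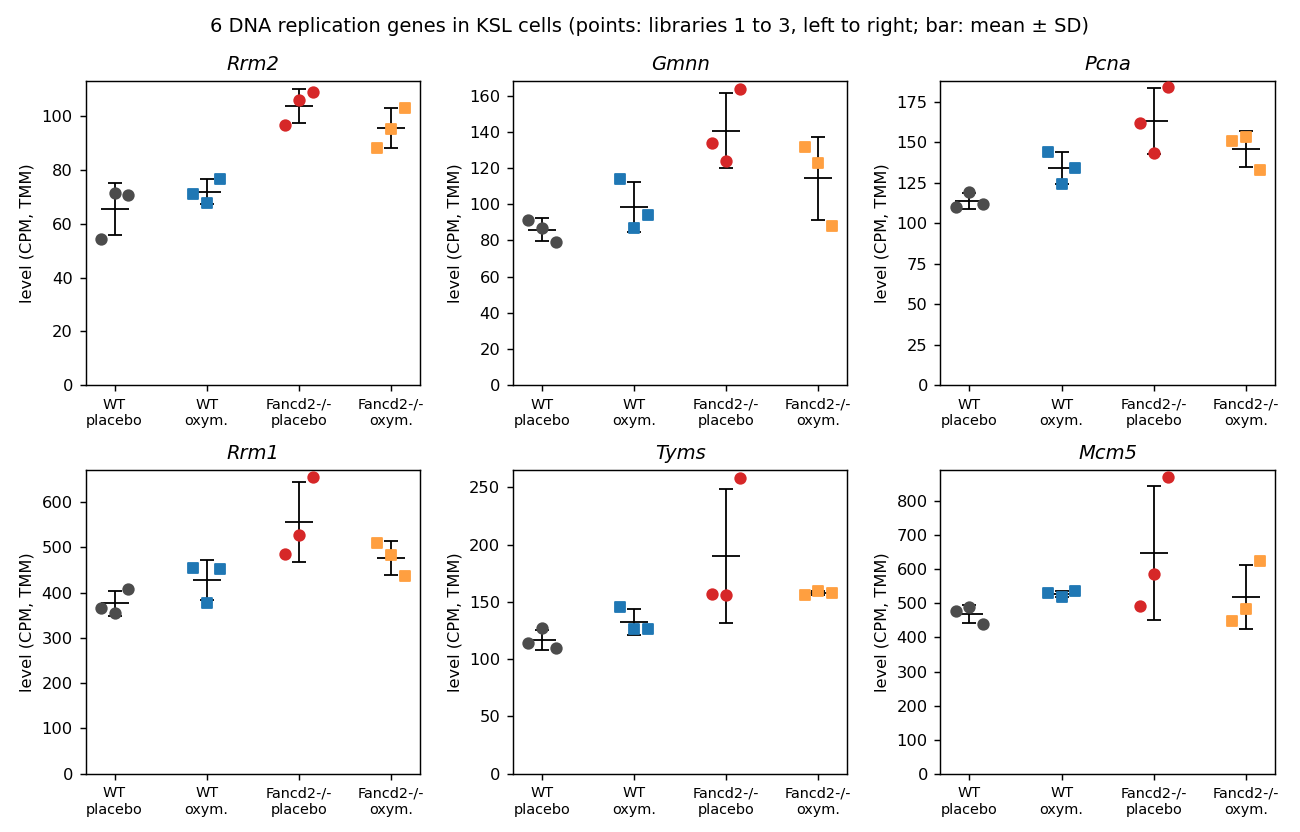
CPM (vertical axis, from 0) in each KSL library by group (horizontal axis). Shown are Rrm2, called between placebo-fed genotypes, Gmnn, Pcna, Rrm1 and Tyms, next in rank there and not called, and Mcm5, described under oxymetholone. Points are libraries and bars give the group mean ± SD. Rrm2 lies at 54.2 to 71.3 CPM in wild-type placebo and at 96.8 to 109 CPM in Fancd2-/- placebo libraries.

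Among oxymetholone-fed mice few of the genes separated the genotypes. Of the 51 genes 40 were above 0 (51.6% of all genes), with a median of 0.10 against 0.01 for all genes, and 0 passed in edgeR, DESeq2 or limma (0.128% of all genes in edgeR, 0.0302% higher). 1 reached an unadjusted p under 0.05 (5.57% of all genes), and 6 had groups without overlap, all higher in Fancd2-/- (5.69% of all genes, against 6.58% lower): Gins2, Fen1, Rrm2, the thymidine kinase Tk1, Tyms and Dut. Of these, 4 belong to the 6 genes of nucleotide supply, whose median was 0.23. Whether the genotype effect differs between diets is the interaction tested further on.

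Rrm2 again had the smallest p of the 51 in the oxymetholone-fed groups. It was read at 71.2, 67.7 and 76.8 CPM in wild-type and 88.3, 95.3 and 103 CPM in Fancd2-/- oxymetholone libraries, without overlap. The log2 difference was 0.41 ± 0.13 (95.4 ± 7.17 against 71.9 ± 4.63 CPM, edgeR adjusted p 0.501). Next came Rpa3, the smallest subunit of the single-strand binding complex (0.32), Gins1 of the GINS complex (0.27), the primase subunit Prim1 (0.21) and Dut (0.23). The most abundant genes of each role lay near 0, with Mcm6 at 0.04, Mcm3 at -0.003, Tipin 0.15, Timeless -0.12, Pold2 0.08, Pold1 -0.09, Rfc2 0.02, Rpa2 0.13, Lig1 -0.03, Fen1 0.13, Rrm1 0.15, Dnmt1 -0.03 and Uhrf1 0.05.

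The effect of oxymetholone within Fancd2-/- KSL cells was read within the 3 pairs, whose placebo libraries are those of the genotype comparison above. Of the 51 genes 43 were below 0 (48.2% of all genes were above 0), with a median of -0.12 against -0.01 for all genes, and 0 passed in edgeR, DESeq2 or limma (0% of all genes in edgeR). An unadjusted p under 0.05 was reached by 4 (6.81% of all genes). The pairs differed: their medians over the genes were 0.03, -0.04 and -0.31, with 31, 19 and 12 genes above 0. Pair 3 holds the placebo library that stands apart, and without either library of that pair the median was -0.02 and 0 genes reached an unadjusted p under 0.05. Without placebo library 2 the median was -0.14 and 9 genes did.

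6 genes were lower in every Fancd2-/- pair (10.9% of all genes), namely Gins2, Gins4, Gmnn, Mcm5, Prim2 and Rrm2, and 3 were higher in every pair (9.93%), namely Clspn, Dtl and Rfc1. Mcm5, a helicase subunit, was read at 492, 585 and 870 CPM with placebo and 448, 483 and 624 CPM with oxymetholone, so its pair differences were -0.14, -0.28 and -0.48 (log2 -0.31 ± 0.11, p 0.0162, edgeR adjusted p 0.688). It was lower with oxymetholone in each pair, although the groups overlapped. The GINS subunit Gins2 (93.8, 96.9 and 146 against 89.9, 87.4 and 86.6 CPM, -0.33 ± 0.14) and the primase subunit Prim2 (83.5, 86.6 and 118 against 78.8, 78.4 and 72.7 CPM, -0.32 ± 0.14) had groups without overlap. They were the 2 genes lower in this way, a count near the share of all genes (3.48%). The largest of their pair differences lay in pair 3 (-0.75 and -0.70). Without placebo library 3 the differences were -0.21 for Mcm5, -0.11 for Gins2 and -0.12 for Prim2.

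Clspn went the other way, with 53.4, 54.0 and 49.9 CPM with placebo and 77.4, 56.2 and 63.3 CPM with oxymetholone (log2 0.30 ± 0.13). All 3 oxymetholone libraries lay above all placebo libraries, in this gene alone of the 51, a count not above the share of all genes (3.27%). The pair differences were 0.53, 0.06 and 0.34. The clamp loader subunit Rfc4 completed the 5 smallest p at -0.36 ± 0.18, with pair differences of -0.15, 0.07 and -0.99, and at -0.04 without placebo library 3, while Clspn stood at 0.29 without it. Of the most abundant genes of each role, Mcm6 and Rrm1 stood at -0.23, Tipin at -0.28, Rfc2 and Dut at -0.17, Mcm3 and Rpa2 at -0.12, Lig1 at -0.10, Pold2, Timeless, Dnmt1 and Fen1 between -0.04 and -0.02, Pold1 at 0.01 and Uhrf1 at 0.04.

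**Figure D3:**
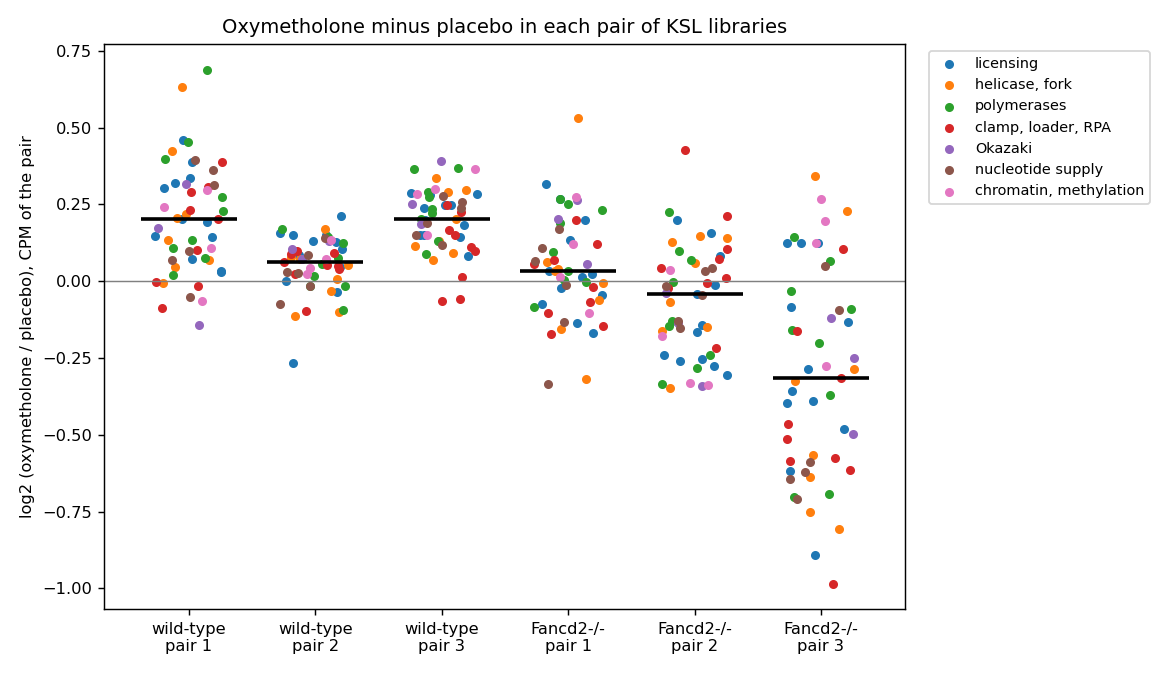
Log2 difference of oxymetholone against placebo (vertical axis) in each KSL pair (horizontal axis) for the 51 replication genes; each point is a gene, coloured by role, and the line is the median. The medians are 0.20, 0.06 and 0.20 in the wild-type pairs and 0.03, -0.04 and -0.31 in the Fancd2-/- pairs.

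In wild-type KSL cells oxymetholone went with slightly higher levels in most of the genes. The placebo libraries are the same 3 that served as the wild-type reference for Fancd2 loss. This comparison, that of the placebo-fed genotypes and the interaction are therefore not independent. Of the 51 genes 49 were above 0 (48.8% of all genes), the 2 others being Orc6 and Rfc3, and the median was 0.14 against -0.005 for all genes. None passed in edgeR (0 of 51, 0% of all genes), DESeq2 or limma, and 1 reached an unadjusted p under 0.05 (2.68% of all genes). The pair medians were 0.20, 0.06 and 0.20, with 44, 39 and 49 genes above 0, and 31 genes were higher in every pair (16.1% of all genes) against 0 lower in every pair (13.8%).

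Pola1 had the smallest p. It was read at 43.9, 53.5 and 53.6 CPM with placebo and 70.8, 54.2 and 69.3 CPM with oxymetholone, a log2 difference of 0.34 ± 0.14 (p 0.0255, edgeR adjusted p 0.999), and pair 2 showed almost none of it (0.69, 0.02 and 0.37 over the pairs). Next came Pold1 (0.26), Clspn (0.25), Mcm4 (0.21), Dnmt1 (0.23) and Mcm2 (0.20). In 10 genes the groups did not overlap, all higher with oxymetholone (4.34% of all genes): Orc1, Dtl, Mcm2, Mcm3, Mcm5, Pola1, Pcna, Rfc1, Rfc5 and Fen1. Licensing genes held 5 of these, and 9 of the 12 licensing genes were higher in every pair.

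Mcm3 was read at 558, 535 and 537 CPM with placebo and 642, 575 and 633 CPM with oxymetholone in wild-type cells, a difference of 0.17 on the log2 scale. Pcna was read at 110, 119 and 112 against 144, 124 and 134 CPM (0.21). In both genes pair 2 had the smallest difference. The other most abundant genes stood at 0.17 (Mcm6, Rrm1), 0.24 (Tipin), 0.14 (Timeless), 0.13 (Pold2), 0.06 (Rfc2, Rpa2), 0.22 (Lig1), 0.20 (Fen1), 0.11 (Dut) and 0.19 (Uhrf1). The mitosis genes were higher in every wild-type pair in 24 of 24, with a median of 0.34, and 19 reached an unadjusted p under 0.05 but 0 passed.

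The interaction, the oxymetholone effect in Fancd2-/- minus that in wild-type KSL cells, tests whether the effects differ. It was below 0 in 49 of the 51 genes, with a median of -0.26 against 0.005 for all genes (50.9% of all genes were above 0), and 0 passed in edgeR, DESeq2 or limma (0% of all genes, smallest adjusted p of the 51 0.953 in edgeR). An unadjusted p under 0.05 was reached by 4 (3.45% of all genes): Mcm5 at -0.47 ± 0.16, Prim2 at -0.48 ± 0.19, Tipin at -0.52 ± 0.22 and Mcm6 at -0.40 ± 0.18, with Mcm2 next at -0.32. Gins2, Mcm5 and Prim2 were lower in every Fancd2-/- and higher in every wild-type pair (1.52% of all genes). Clspn, Dtl, an adaptor for the degradation of Cdt1, and Rfc1 were higher in all 6 pairs. The share of all genes higher in all 6 was not counted. Of all genes, 9.93% were higher in every Fancd2-/- pair and 16.1% in every wild-type pair.

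The interaction of the other most abundant genes lay at -0.29 for Mcm3, -0.18 for Timeless, -0.17 for Pold2, -0.25 for Pold1, -0.23 for Rfc2, -0.19 for Rpa2, -0.31 for Lig1, -0.22 for Fen1, -0.39 for Rrm1, -0.28 for Dut, -0.26 for Dnmt1 and -0.15 for Uhrf1. None of these passed. Without Fancd2-/- placebo library 3 the median of the 51 genes was -0.16, and without its oxymetholone partner -0.15, with 7 genes above 0 in each. Without the placebo library Mcm5 stood at -0.38, Prim2 at -0.29, Tipin at -0.35 and Mcm6 at -0.20, and without placebo library 2 at -0.49, -0.58, -0.74 and -0.50. The mitosis genes were below 0 in 24 of 24, with a median of -0.50.

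In erythroblasts of wild-type mice oxymetholone left the replication genes close to their placebo levels. The log2 differences spanned -0.04 (Rfc2) to 0.10 (Gmnn), with a median of 0.03 against 0.001 for all 9694 genes tested, and 38 of 51 were above 0 (50.4% of all genes). 0 passed in edgeR, DESeq2 or limma (0% of all genes in edgeR), 0 reached an unadjusted p under 0.05 (1.27%), and in 0 genes were the oxymetholone libraries all above (2.95%) or all below (2.98%) the placebo libraries. Without placebo library 1 the median was -0.01.

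Rrm2 was read at 1940, 1930 and 1980 CPM in placebo and 2050, 1980 and 1950 CPM in oxymetholone erythroblasts, values that overlap. Gmnn was read at 153, 157 and 171 against 172, 170 and 173 CPM, with 1 oxymetholone library under the highest placebo library (0.10 ± 0.06, edgeR adjusted p 0.999). The next in rank by p were Pold2 (0.08), Pold3 (0.06), Lig1 (0.06) and Tk1 (0.05). The summed 51 genes ranged from 18000 to 19200 CPM over the 6 erythroblast libraries.

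Erythroblasts and KSL cells differed far more than any of the groups above. Every KSL library pooled mice and no erythroblast library did, so cell type cannot be separated from pooling here. Nor can it be separated from any difference in library batch between the cell types. The part of pooling and batch in these differences was not tested. Between the 3 placebo libraries of each cell type in wild-type mice, with levels rescaled over these 6 libraries, 49 of 51 genes rose in erythroblasts and 0 fell in edgeR (91% of 12538 genes tested were called, 37.2% higher and 53.7% lower, and 91.1% had an unadjusted p under 0.05), and 49 did not overlap (36.9% of all genes). The median was 2.23 against -0.67 for all genes. The size of these differences depends on the scaling. The summed erythroid markers stood at 73400 to 84400 CPM in the placebo erythroblasts, and their part in this dependence was not tested. With library totals in place of TMM the median was 0.81 against -2.08 for all genes, with 35 genes called higher and 10 lower in edgeR. The shares of all genes called each way by totals are not given here. Each of the 51 genes lay above the median of all genes under both scalings, by 2.90 and 2.89 at the median. A change of scaling moves all genes by nearly the same amount, so the distance by totals only repeats that by TMM.

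Rrm2 had the largest difference. On the scale of these 6 libraries it was read at 35.5, 47.3 and 42.3 CPM in KSL cells and 3110, 3110 and 3180 CPM in erythroblasts (log2 6.29 ± 0.15, edgeR adjusted p 1.12e-14, or 4.88 by library totals). Cdc6, the helicase loader, was read at 32.3, 42.7 and 34 against 822, 813 and 758 CPM (4.52 ± 0.13, 3.10 by totals). Both sets of values are far apart. Within erythroblasts Rrm2 reached 890 ± 12 CPM per kb, at percentile 99.6 to 99.7 of the genes tested in erythroblasts that have an annotated length.

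Clspn (log2 4.35), Orc1 (4.13), Pcna (3.81), Fen1 (3.72), Uhrf1 (3.58), Tk1 (3.45), Pola1 (3.43), Mcm2 (3.34), Rrm1 (3.10) and Chaf1a (3.09), a subunit of chromatin assembly factor 1, completed the 12 largest differences. Orc1, the lowest of the 51 genes per kilobase in KSL cells, was read at 12.3, 13.5 and 12.8 CPM there and 205, 225 and 216 CPM in erythroblasts. Pcna was read at 72.0, 79.1 and 67.3 against 991, 997 and 942 CPM. These genes stayed above 0 by library totals, as 38 of the 51 did.

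The 2 genes that did not pass were Rfc2, at 271, 254 and 195 CPM in KSL cells and 251, 269 and 258 CPM in erythroblasts (log2 0.18 ± 0.12, edgeR adjusted p 0.163), and Ung, which removes uracil from DNA, at 57.3, 68.1 and 46.6 against 46.7, 54.9 and 55.8 CPM (-0.07 ± 0.13, adjusted p 0.631). Both sets overlap. With RLE factors or DESeq2 Rfc2 passed as higher in erythroblasts (0.33, adjusted p 0.00811 in edgeR and 0.00511 in DESeq2), as it did without wild-type placebo KSL library 1 (0.26, edgeR adjusted p 0.0431), so that 50 genes were called. By library totals Rfc2 was lower in erythroblasts by -1.24 and Ung by -1.48, and Pold2, which rose by 0.58 with TMM (edgeR adjusted p 0.000539), stood at -0.84. The other genes called lower by totals were Gins2, Pold1, Pold3, Rfc1, Rfc3, Rfc5 and Dut.

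By role, the median log2 difference between erythroblasts and KSL cells was 2.94 for the chromatin group, 2.78 for nucleotide supply, 2.52 for the Okazaki group, 2.5 for licensing, 2.08 for polymerases, 2.01 for helicase and fork genes and 1.34 for the clamp group. Licensing genes were called higher in 12 of 12 with TMM and 11 of 12 by totals, and the clamp group in 8 of 9 with TMM but 3 of 9 by totals, with 4 lower. With TMM 37.2% of all genes were called higher, and the share by totals is not given here. The most abundant KSL genes of each role not yet given stood at 1.68 (Mcm6), 1.57 (Mcm3), 2.23 (Tipin), 1.69 (Timeless), 0.83 (Pold1), 1.34 (Rpa2), 2.52 (Lig1), 0.81 (Dut) and 2.79 (Dnmt1). The 23 genes with an E2F-type match had a median of 2.18 and the 28 without 2.32. In the comparison of placebo-fed genotypes those medians were 0.29 and 0.35.

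**Figure D4:**
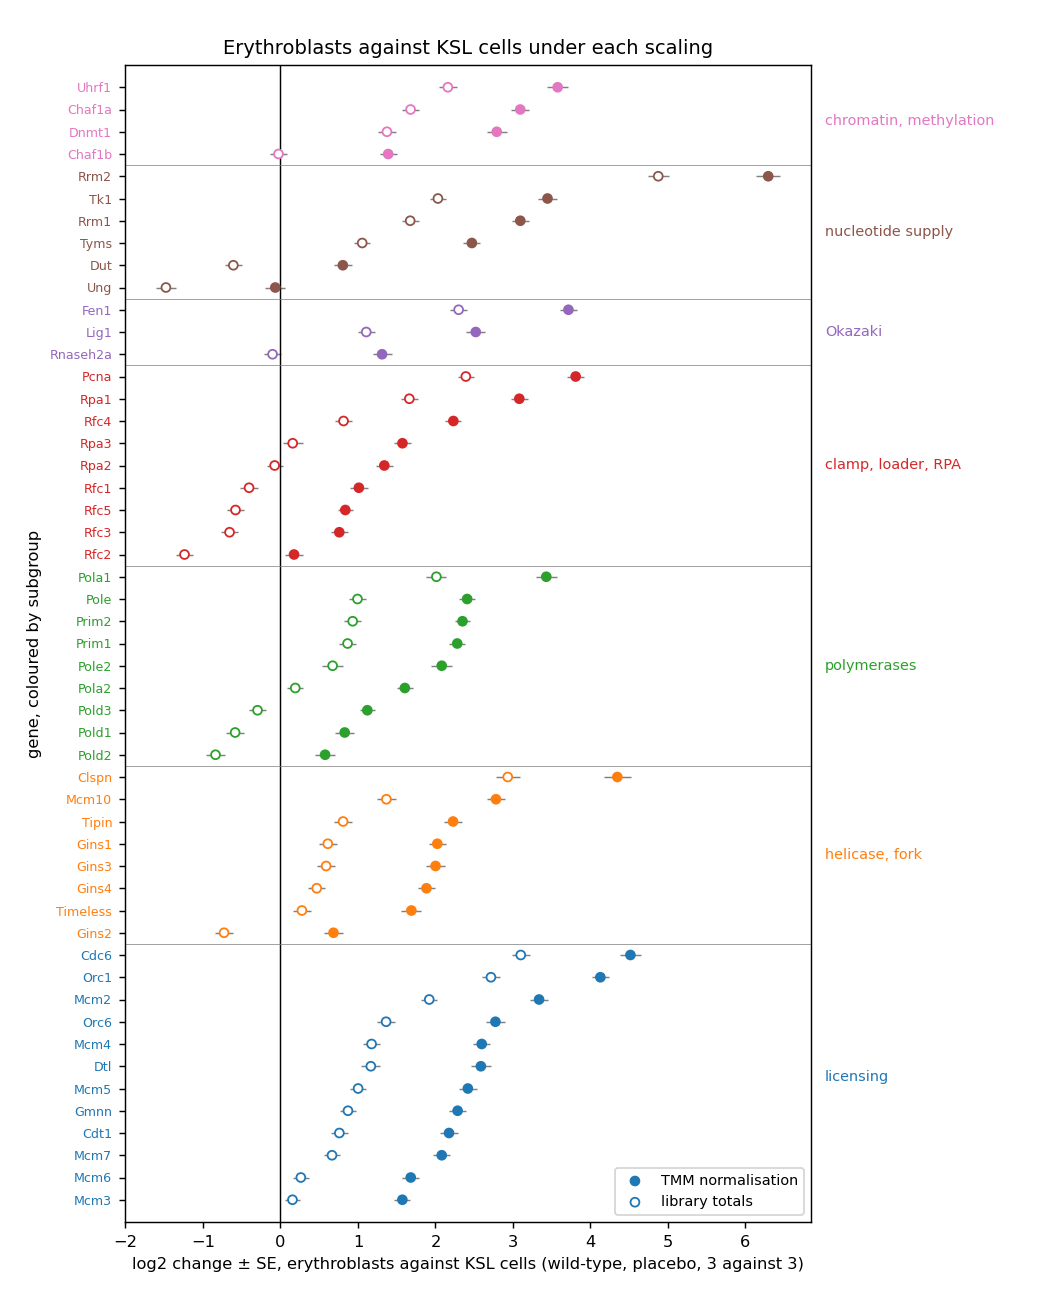
Log2 difference ± SE of erythroblasts against KSL cells in wild-type placebo mice (horizontal axis) for each of the 51 replication genes (vertical axis, coloured by role), with filled points for TMM scaling and open points for library totals. Rrm2 stands farthest right at 6.29 and 4.88, and Rfc2 and Ung lie nearest 0 under TMM.

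The order of the helicase subunits per kilobase was not the same in both cell types. In placebo erythroblasts Mcm2 stood highest of the ring at 369 to 383 CPM per kb, followed by Mcm5 at 279 (273 to 289), Mcm3 at 206 (192 to 214), Mcm7 at 202 (187 to 213), Mcm6 at 191 (182 to 200) and Mcm4 at 154 (143 to 161), on the scale of the erythroblast libraries. Mcm3, Mcm7 and Mcm6 overlapped. Mcm2, the fifth of the 6 in KSL cells, was the highest in erythroblasts. Among the clamp loader subunits Rfc2 stood highest in both, at 106 CPM per kb in erythroblasts, while Rfc4, at 82.4, lay above Rfc3 at 55.0, the reverse of their order in KSL cells. The lowest of the 51 genes in erythroblasts were Gins2 at 12 and Ung at 15.3 CPM per kb. The length used was 3900 bases for Gins2, against 1087 for Gins1, 2412 for Gins3 and 1364 for Gins4.

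In whole bone marrow, 1 library per genotype was compared and no test of the conditions was possible. Ratios of Fancd2-/- to wild-type CPM are given with exact 95% intervals that cover counting error only. Fancd2 stood at 26.1 CPM in wild-type and 7.11 CPM in Fancd2-/- marrow (ratio 0.272, 0.251 to 0.295). The median ratio of the 51 genes was 0.963 against 1 for all genes, and 10 lay above 1 (50.6% of all genes). The interval lay below 1 for 32 of 51 (62.7%, against 23.5% of all genes with at least 100 counts in a library) and above 1 for 5 (23.9% of all genes). These interval shares are not at like depth. Intervals narrow with counts, and the 51 genes held from 1970 (Pole2) to 57192 (Mcm5) counts in wild-type marrow. No gene of the 51 differed by 1.5-fold, which 1.41% of all genes did.

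The lowest marrow ratios were those of Pold2 (0.912, 0.885 to 0.941), Cdt1 (0.913, 0.897 to 0.929), Timeless (0.917), the polymerase alpha subunit Pola2 (0.918) and Gins2 (0.923). The highest were Tipin (1.06, 1.03 to 1.09), Pola1 (1.06, 1.01 to 1.12), Rfc4 (1.06, 1.02 to 1.10), Rpa3 (1.05, 0.998 to 1.11) and Rfc1 (1.04, 1.01 to 1.06). Rrm2 stood at 429 CPM in wild-type and 443 CPM in Fancd2-/- marrow (ratio 1.03, 1.02 to 1.04). In licensing genes the interval lay below 1 in 10 of 12, with a median ratio of 0.96.

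The other most abundant genes of each role had marrow ratios of 0.985 (Mcm6), 0.953 (Mcm3), 0.934 (Pold1), 0.96 (Rfc2), 0.975 (Rpa2), 0.963 (Lig1), 0.993 (Fen1), 0.986 (Rrm1), 1.01 (Dut), 0.930 (Dnmt1) and 0.924 (Uhrf1). The marrow libraries also differed in summed neutrophil markers, at 106000 CPM in wild-type and 113000 CPM in Fancd2-/-, and in summed erythroid markers, at 48500 and 46800 CPM. The part of this difference in cell markers in the replication values was not tested. The 51 genes summed to 8200 CPM in wild-type and 7900 CPM in Fancd2-/- marrow.

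**Figure D5:**
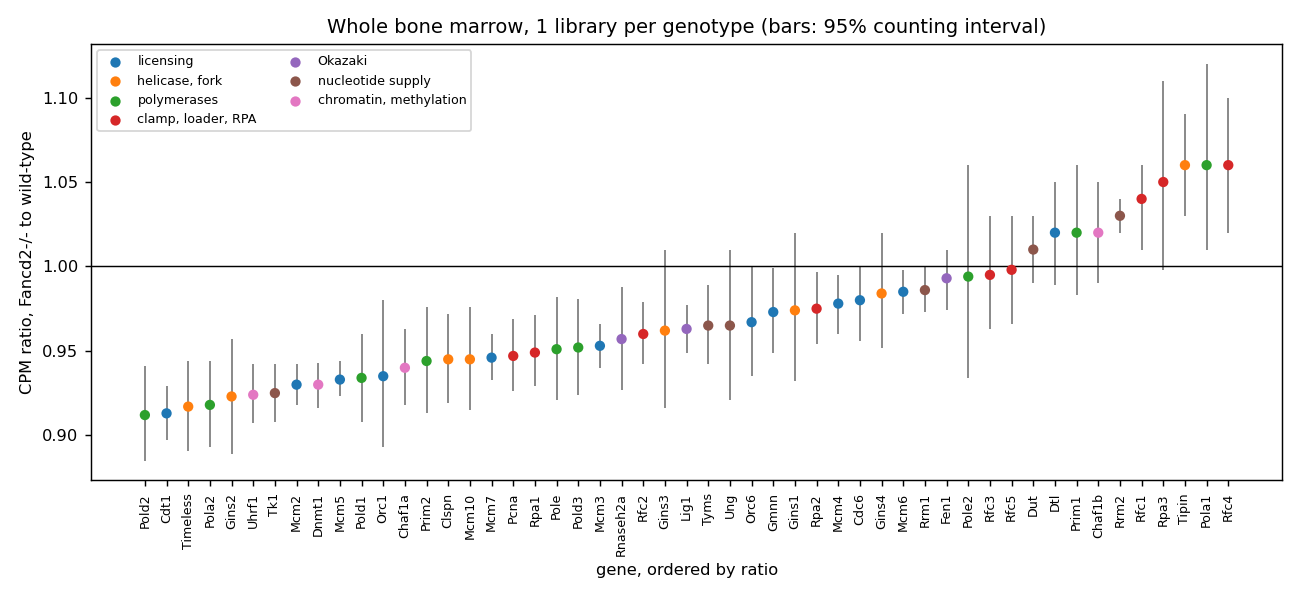
Ratio of Fancd2-/- to wild-type CPM in whole bone marrow (vertical axis) for each of the 51 replication genes (horizontal axis, ordered by ratio and coloured by role), with exact 95% intervals for counting error. Most lie slightly under 1, and they range from 0.912 for Pold2 to 1.06 for Tipin, Pola1 and Rfc4.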

How the data were processed

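RNA of 20 mouse libraries was sequenced with reads of 51 bases. The authors aligned reads to mm9 with Bowtie and used edgeR, per the submitters' processing notes, and deposited a count matrix of 26005 RefSeq transcripts. No source used here states tool versions, strand or the treatment of multiply mapped reads. A second deposited matrix holds a score, the counts scaled to a fixed total per library and rounded, and was used only with limma as an alternative (log2 of the score plus 1). Without strand, reads of overlapping genes cannot be told apart, nor can those of near-identical gene copies.

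The members and lists were chosen with earlier results of these data known. The transcript with the largest total was kept for each symbol. KSL, erythroblast and joint sets were filtered (filterByExpr), TMM-scaled and fitted with robust edgeR quasi-likelihood models (edgeR 4.0.16, R 4.3.3), with Benjamini-Hochberg adjustment over all genes tested and a threshold of 0.05. Oxymetholone effects had a term per pair, and genotype and cell type were compared by group means over all libraries of the set. The pairing comes from the series' design text, which ties libraries by flow cytometer setting. A name used there and in the matrices that matched no sample title exactly was taken as the closest title, Fancd2-/- placebo library 1. Same-pair deviations from group means correlated at 0.134, -0.0615 and 0.213 (Fancd2-/-) and 0.113, 0.258 and 0.131 (wild-type) over 13259 genes. The oxymetholone library of Fancd2-/- pair 2 correlated at up to 0.262 with a placebo library of another pair. For the oxymetholone libraries of the other pairs the same-pair value was the highest.

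Marrow ratios carry exact 95% intervals for counting error only, for genes with at least 100 counts in a library. Log2 CPM used a prior count of 2. Per-length levels divide CPM by the longest GENCODE M1 transcript of the symbol. Named were genes called at the threshold (the 12 largest per direction where over 20), otherwise the 5 with the smallest p, the 2 most abundant of each role, the 5 highest and 5 lowest in marrow, and up to 4 called genes of each other list. The fit was tested on simulated counts. Alternatives were RLE factors, no filter, DESeq2 1.42.0, limma 3.58.1, counts summed over transcripts, removal of the length trend, no pair term, library totals, and each library left out.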

Additional observations from a re-analysis of the deposited data

How the results depend on the processing

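For Fancd2 loss in placebo-fed KSL cells the median log2 difference of the 51 genes stayed above 0 in every alternative run. The number called was 1 in edgeR (1.28% of all genes), 3 without a filter on low counts (1.02%) and 17 with DESeq2 (6.55% of genes with an adjusted p). It was 2 with the transcript length trend removed (1.12%) and 6 without both libraries of Fancd2-/- pair 3, chosen after seeing the data (3.17%). With each library left out it was 0 to 9 (0.142% to 2.59%). The medians with each library left out ranged from 0.24 to 0.44 there, -0.17 to -0.02 for oxymetholone in Fancd2-/-, 0.13 to 0.20 in wild-type, -0.35 to -0.15 for the interaction, 0.07 to 0.12 for Fancd2 loss in oxymetholone-fed cells, and -0.006 to 0.034 for oxymetholone in erythroblasts, where leaving out placebo library 1 turned the sign (-0.006). A fit with no replicate block in place of the pair term gave medians of -0.13, 0.14 and -0.25 for Fancd2-/-, wild-type and the interaction and called 0 genes in each.

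The median of erythroblasts against KSL cells was 2.38 with RLE factors, 2.38 with DESeq2, 0.86 with limma on the deposited scaled matrix and 0.81 by library totals (added after seeing the data), and 2.22 to 2.31 with each library left out, where 49 to 50 genes were called higher. Ung (-0.184 to 0.06 with each library left out) turned to 0.089 with RLE factors and with DESeq2, 0.06 without wild-type placebo KSL library 2 and 0.014 without placebo erythroblast library 1. Rfc2 passed as higher with RLE factors (0.329), with DESeq2 (0.329) and without wild-type placebo KSL library 1 (0.26), with 50 genes called in each, but turned to -1.19 and Pold2 to -0.78 on the scaled matrix, and to -1.24 and -0.84 by totals. Each group has 3 pools or mice, the marrow ratios rest on 1 library each, and KSL depth ranged from 10777291 to 121347124 counts.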
